A study of Mus musculus with 18 samples.

Results

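Fos, Jun and the other immediate early genes were examined in cancer cells grown as spheroids with and without fibroblasts. The set held 10 genes, namely Fos, Fosb, Fosl1, Fosl2, Jun, Junb, Egr1, Ier2, Ier3 and Dusp1, matched by symbol, ignoring case, in both count tables, out of 24455 genes listed for one cancer line and 24532 for the other. The set was chosen by its measured levels, because Fos was strongly lower in LLC1 coculture, so the members' LLC1 values in coculture against alone are given as a description, with no test. All 10 members passed the filter on low counts in both lines.

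RNA was sequenced from 18 libraries of GFP-labelled mouse cancer cells, 3 per group. The cells were 168FARN, a breast cancer line, cultured with MMTV-CAFs (cancer-associated fibroblasts from mammary tumours of MMTV-PyMT mice), and LLC1, a Lewis lung carcinoma line, cultured with wound healing fibroblasts taken from the back skin on day 10 after wounding. Each line was grown alone, with WT fibroblasts carrying the control guide sgNS, or with sgPrrx1 fibroblasts, in which Prrx1 had been deleted with CRISPR/Cas9, at 3 fibroblasts per cancer cell in hanging drops and then on a shaker. Each line had its own type of fibroblast, so effects of the line and of the fibroblast type cannot be told apart. The spheroids were dissociated with trypsin and the GFP-positive cells were sorted before RNA extraction. The labels did not say whether the 3 libraries of a group came from separate cultures, so p-values measure only the spread between these samples.

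Immediate early genes are switched on within minutes of a growth factor, cytokine or stress signal, without new protein synthesis, and most are switched off again soon after. Signals through the ERK and other MAP kinases reach serum response factor, its ternary complex partners and CREB at their promoters. Fos and Jun family proteins then pair through leucine zippers to form AP-1, which binds TGACTCA and related sites at genes for invasion, wound repair and proliferation. Cell dissociation can itself raise these genes and heat shock genes.

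The 168FARN libraries held 48315037 to 68933002 counts and the LLC1 libraries 66129117 to 103997557, and no member had fewer than 510 counts in any library. LLC1 sgPrrx1 replicate 3 stood apart from its group, with correlations of 0.949 and 0.950 with the other two libraries, which correlated at 0.991 with each other. LLC1 tests are therefore given with and without that library, and its own value is named where it moved a group. The spread between replicates in the edgeR fit (biological coefficient of variation) was larger in LLC1 (0.228, and 0.112 without that library) than in 168FARN (0.0728). Prrx1 does not check the labels here, since the deletion was in the fibroblasts. The epithelial markers Epcam and Cdh1 were below 1 CPM (counts scaled to the library's total as adjusted by its TMM factor) in every library of both lines, and all 6 epithelial markers were below 1 CPM in LLC1. In 168FARN, Krt8 was at 331, 372 and 419 CPM alone, with WT and with sgPrrx1, and Krt7 at 6.24, 12.1 and 9.98 CPM. Krt19 was at 0, 3.09 and 0 CPM there, and Krt18 was below 1 CPM.

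The sequences upstream of the Fos, Fosb, Junb and Dusp1 start sites are shown because these 4 were the members, of 7 with a RefSeq promoter entry (GRCm38.p6), that held the CRE half-site TGACG in the 250 bases before the start. Capitals mark TGACG on either strand and, in Dusp1, the whole CRE TGACGTCA, the site CREB and ATF proteins bind. Each is written 5′ to 3′ on the gene's own strand, Fos at chr12:85473640-85473889 (+), Fosb at chr7:19310046-19310295 (-), Junb at chr8:84978749-84978998 (-) and Dusp1 at chr17:26508473-26508722 (-).
Fos: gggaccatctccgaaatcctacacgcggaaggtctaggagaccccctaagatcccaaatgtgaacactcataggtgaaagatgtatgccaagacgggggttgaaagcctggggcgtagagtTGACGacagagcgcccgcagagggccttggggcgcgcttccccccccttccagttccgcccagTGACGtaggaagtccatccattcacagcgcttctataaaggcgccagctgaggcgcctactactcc
Fosb: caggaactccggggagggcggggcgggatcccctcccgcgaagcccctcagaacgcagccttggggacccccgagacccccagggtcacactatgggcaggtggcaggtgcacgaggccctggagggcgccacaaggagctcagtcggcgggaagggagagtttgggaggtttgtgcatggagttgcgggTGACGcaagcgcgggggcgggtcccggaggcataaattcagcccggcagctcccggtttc
Junb: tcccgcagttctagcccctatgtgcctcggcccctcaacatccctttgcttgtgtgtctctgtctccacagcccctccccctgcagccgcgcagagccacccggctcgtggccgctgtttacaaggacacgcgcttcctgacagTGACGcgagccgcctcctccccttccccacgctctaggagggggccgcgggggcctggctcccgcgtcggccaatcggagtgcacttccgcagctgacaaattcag
Dusp1: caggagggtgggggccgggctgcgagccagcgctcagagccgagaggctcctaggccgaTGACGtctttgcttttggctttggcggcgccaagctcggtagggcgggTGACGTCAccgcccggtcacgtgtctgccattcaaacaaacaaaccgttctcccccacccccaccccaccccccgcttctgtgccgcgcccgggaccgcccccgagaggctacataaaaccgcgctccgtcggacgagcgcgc
TGACG was found in the same window of 17.8% of 32851 promoters, and TGACGTCA in 1.55%. Fos held TGACG from -129 to -125 and from -66 to -62 relative to the start, with TATAAA from -33 to -28, a sequence present in 12.4% of promoters. Fosb held TGACG from -60 to -56, but the RefSeq gene entry of Fosb reaches to chr7:19310118, so this match lies inside the annotated gene and not upstream of it. Junb held TGACG from -106 to -102, and Dusp1 held TGACGTCA from -143 to -136 and a further TGACG from -191 to -187. TGACTCA, present in 4.46% of promoters, and the CArG box that serum response factor binds, present in 1.47%, had no match in the 7 windows. Jun, Fosl2 and Ier3 held neither TGACG nor TGACGTCA, and Fosl1, Egr1 and Ier2 had no entry. No match says only that these letters are not in this window.

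In 168FARN, 9 of the 10 members rose with WT MMTV-CAFs and Dusp1 fell. The background was wide: 64.1% of 13540 genes passed edgeR's quasi-likelihood test at an adjusted p below 0.05, 33.4% higher and 30.7% lower. The median log2 fold change of the members was 0.51, against 0.01 over all genes tested.

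**Figure D1:**
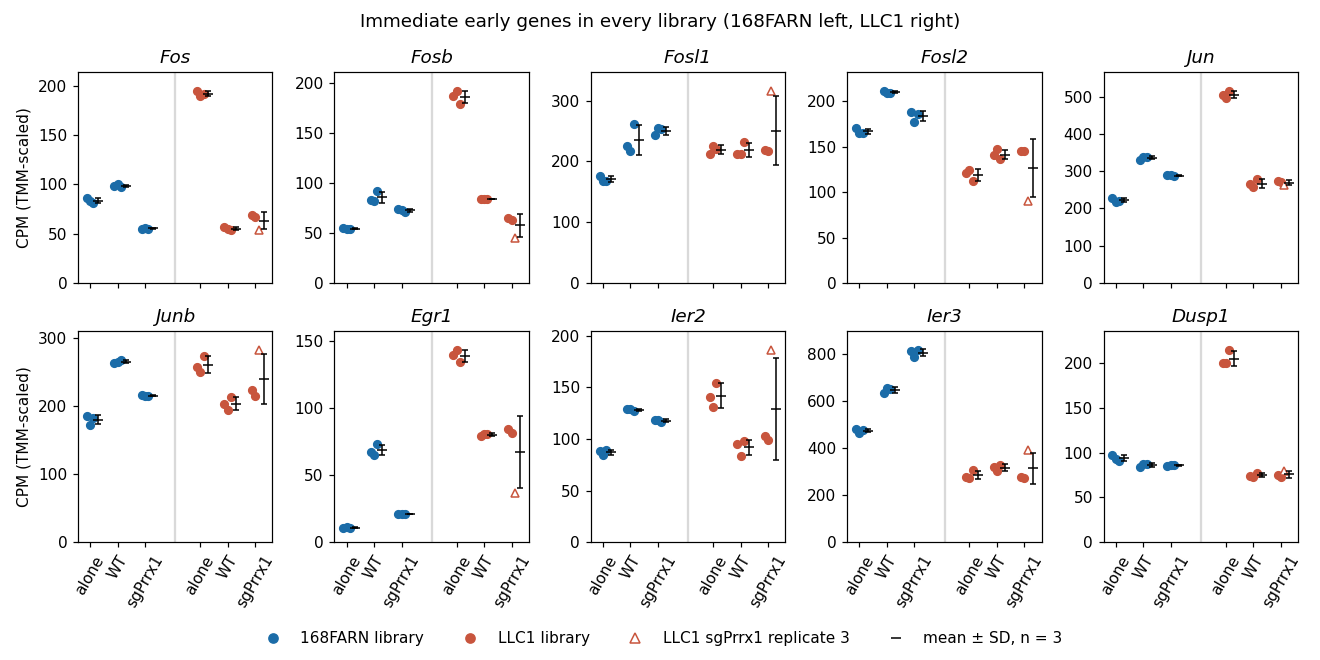
TMM-scaled CPM (y axis, linear, from 0) of each immediate early gene in every library of 168FARN (blue) and LLC1 (red), by group on the x axis, with the mean and SD of 3 libraries as black bars; the open triangle is LLC1 sgPrrx1 replicate 3. Egr1 in 168FARN sits at 10.5 to 11.5 CPM alone, 65.4 to 73.3 with WT and 20.9 to 21.4 with sgPrrx1, while Fos in LLC1 sits at 189 to 194 CPM alone and 53.4 to 69.0 in both cocultures.

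Egr1, a zinc finger factor induced through serum response factor, changed most. Its level in 168FARN was 10.7, 11.5 and 10.5 CPM alone, 67.7, 65.4 and 73.3 CPM with WT fibroblasts, and 21.2, 21.4 and 20.9 CPM with sgPrrx1 fibroblasts. The 3 groups did not overlap, and the sgPrrx1 libraries lay between the others and closer to those alone. The log2 fold change was 2.66 ± 0.0504 (SE) for WT against alone (6.30-fold, edgeR adjusted p = 1.42e-11), 0.96 ± 0.0512 for sgPrrx1 against alone (adjusted p = 7.21e-08), and -1.70 ± 0.0473 for sgPrrx1 against WT (3.25-fold lower, adjusted p = 8.91e-10).

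Fos, the founding AP-1 subunit, which forms dimers with Jun proteins and not with itself, took a different order. In 168FARN it was 85.9, 83.2 and 80.6 CPM alone, 98.1, 99.8 and 97.2 CPM with WT fibroblasts, and 54.8, 56.0 and 54.8 CPM with sgPrrx1 fibroblasts. The groups did not overlap, and the sgPrrx1 libraries were lowest. Fos rose by 0.24 ± 0.0299 on the log2 scale with WT (1.18-fold, edgeR adjusted p = 3.2e-05) and fell by 0.59 ± 0.0303 with sgPrrx1 against alone (adjusted p = 5.14e-08). Against WT coculture it fell by 0.83 ± 0.0303 with sgPrrx1 (1.78-fold, adjusted p = 4.9e-09).

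The other Fos family members in 168FARN were higher in both cocultures than alone. Fosb was 54.8, 54.4 and 53.7 CPM alone, 82.6, 81.9 and 92.0 CPM with WT, and 74.1, 72.8 and 70.9 CPM with sgPrrx1. It rose by 0.65 ± 0.0432 with WT and by 0.42 ± 0.0433 with sgPrrx1, and fell by 0.24 ± 0.0429 between WT and sgPrrx1. Fosl2, also called Fra-2, followed the same order, with means of 167 ± 2.87, 210 ± 1.09 and 183 ± 5.72 CPM (SD, n = 3) alone, with WT and with sgPrrx1. Fosl1, also called Fra-1, a subunit known from invasive tumour cells, was 176, 167 and 169 CPM alone, 226, 217 and 263 CPM with WT, and 243, 254 and 254 CPM with sgPrrx1. Fosl1 rose in both cocultures (log2 0.46 ± 0.0603 and 0.55 ± 0.0603), and its coculture groups overlapped, with a difference of 0.09 (95% confidence interval -0.04 to 0.23, edgeR adjusted p = 0.208). Without WT replicate 3, the highest of the WT libraries, that difference was 0.18 and passed the test (adjusted p = 0.00162). The gene overlaps Ccdc85b on the other strand, and the library kit does not mark strand, so reads in the overlap cannot be told apart.

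Jun, the AP-1 subunit that can also pair with itself, was 228, 218 and 220 CPM in 168FARN alone, 332, 340 and 338 CPM with WT, and 290, 290 and 287 CPM with sgPrrx1. Junb, a Jun protein that often restrains Jun, had means of 180 ± 6.90, 265 ± 2.44 and 215 ± 1.18 CPM in the same order. Neither gene's groups overlapped, and for both the sgPrrx1 libraries lay between those alone and those with WT. Jun rose by 0.60 ± 0.0253 with WT and fell by 0.22 ± 0.0252 between WT and sgPrrx1 (edgeR adjusted p = 6.94e-09 and 2e-05). Junb rose by 0.56 ± 0.0306 and fell by 0.30 ± 0.0305 over the same comparisons (adjusted p = 4.95e-08 and 8.01e-06).

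Ier2, a nuclear immediate early protein, had means of 87.2 ± 2.59, 128 ± 1.13 and 118 ± 1.33 CPM alone, with WT and with sgPrrx1. Ier3, which acts in survival and ERK signalling, was the only member called higher with sgPrrx1 than with WT fibroblasts in the edgeR fit of all 9 libraries. It was 481, 466 and 475 CPM alone, 632, 653 and 651 CPM with WT, and 811, 786 and 814 CPM with sgPrrx1, with no overlap. It rose by 0.45 ± 0.0226 with WT and by a further 0.32 ± 0.0226 between WT and sgPrrx1 (edgeR adjusted p = 2.95e-08 and 5.71e-07). Dusp1, a phosphatase that switches off MAP kinases, was 97.6, 92.8 and 90.7 CPM alone, 83.9, 87.7 and 87.7 CPM with WT, and 85, 86.3 and 86.3 CPM with sgPrrx1. The changes of Dusp1 were small, -0.12 ± 0.0328 with WT and -0.13 ± 0.0328 with sgPrrx1 against alone (adjusted p = 0.00896 and 0.00803).

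Counted together, sgPrrx1 coculture against alone gave 8 members higher and 2 lower (Fos and Dusp1), where 49.7% of all genes passed, 25.7% higher and 24.1% lower. Between the cocultures, 7 members were lower with sgPrrx1 (Egr1, Fos, Junb, Fosb, Jun, Fosl2 and Ier2) and 1 was higher (Ier3), where 60.0% of all genes passed, 26.9% higher and 33.1% lower. The medians of the members were 0.40 and -0.21 in these comparisons, against 0.00 and -0.03 over all genes. The 3 comparisons share their libraries, so they are not independent of each other. In bulk samples, fewer cells of a type and less RNA per cell cannot be told apart.

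Most fibroblast marker genes moved with coculture in 168FARN. Of 10 tested, 8 were higher and 1 lower with WT than alone, and 9 were lower and 1 higher with sgPrrx1 than with WT. Among all genes, 33.4% were higher and 30.7% lower in the first comparison, and 26.9% higher and 33.1% lower in the second. The summed CPM of the 12 fibroblast markers was 200 to 205 alone, 997 to 1090 with WT and 320 to 330 with sgPrrx1. Col1a2, a type I collagen chain, was at 0.103, 148 and 12.9 CPM in that order, and Dcn at 0.275, 92.8 and 43.3 CPM, while Thy1, Lum and Fap were below 1 CPM in all groups. Other members of the list took another order, with Pdgfrb at 43 CPM alone, 40.6 with WT and 26.7 with sgPrrx1, and Twist2 at 41.5, 39.1 and 55.9 CPM. The 5 endothelial markers summed to 0.535 to 0.658 CPM alone, 5.71 to 6.74 with WT and 4.08 to 4.64 with sgPrrx1, most of it in coculture from Cdh5. The 7 leukocyte markers summed to 51.5 to 54.2 CPM alone, 32.1 to 35.3 with WT and 37.8 to 39.5 with sgPrrx1, and Ptprc, Adgre1 and Cd3e were below 1 CPM. The part of other cells' RNA in the members' differences was not tested.

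In LLC1, Fos was lower in both cocultures than alone. Fos was 194, 189 and 192 CPM alone, 57.1, 54.7 and 53.4 CPM with WT wound healing fibroblasts, and 69.0, 66.8 and 53.4 CPM with sgPrrx1 fibroblasts. Both cocultures lay far below the libraries alone, and they overlapped each other only through sgPrrx1 replicate 3. The log2 fold change against alone was -1.80 with WT (3.48-fold lower) and -1.60 with sgPrrx1 (3.04-fold lower), and -1.79 and -1.49 without sgPrrx1 replicate 3. These are the values for which the set was chosen, and no test of them is given.

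Dusp1 was also lower in both LLC1 cocultures. It was 200, 200 and 214 CPM alone, 74.3, 72.8 and 77.3 CPM with WT, and 75.1, 72.4 and 79.4 CPM with sgPrrx1, replicate 3 included. Its log2 fold change was -1.45 with WT and -1.44 with sgPrrx1, and the cocultures overlapped throughout. Of the genes whose upstream sequences are printed above, Fos and Dusp1 differed most with WT, ahead of Fosb (-1.15) and Junb (-0.36). With sgPrrx1 the order was Fosb (-1.69), Fos (-1.60), Dusp1 (-1.44) and Junb (-0.12), and Fosb was also lowest without replicate 3 (-1.53). Jun, which held no TGACG in its window, was at -0.92 with WT and -0.91 with sgPrrx1. A link between TGACG and these values was not tested.

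Fosb in LLC1 was 187, 192 and 179 CPM alone, 83.8, 83.8 and 84.5 CPM with WT, and 64.8, 63.2 and 44.8 CPM with sgPrrx1. All 3 groups stood apart, with sgPrrx1 lowest. Jun was 506, 496 and 515 CPM alone, 265, 258 and 279 CPM with WT, and 274, 272 and 263 CPM with sgPrrx1, so the cocultures overlapped at about the same level. The log2 fold changes against alone were -1.15 with WT and -1.69 with sgPrrx1 for Fosb, and -0.92 and -0.91 for Jun.

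Egr1 was 139, 143 and 134 CPM in LLC1 alone, 79.2, 80.6 and 81.1 CPM with WT, and 84.5, 81.4 and 36.7 CPM with sgPrrx1. Its coculture levels were close to each other except in sgPrrx1 replicate 3. Ier2 was 140, 131 and 155 CPM alone, 94.8, 83.7 and 97.9 CPM with WT, and 103, 98.8 and 186 CPM with sgPrrx1, where replicate 3 was above all other LLC1 libraries. Junb had means of 260 ± 12.2 CPM alone, 203 ± 9.65 CPM with WT and 240 ± 36.4 CPM with sgPrrx1, where replicate 3 was at 281 CPM and the others at 223.5 and 214 CPM. The log2 fold change with WT against alone was -0.79 for Egr1, -0.62 for Ier2 and -0.36 for Junb.

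The last 3 members did not share that direction in LLC1. Fosl1 had means of 219 ± 7.18 CPM alone and 219 ± 11.7 CPM with WT, and Ier3 286 ± 17.5 and 316 ± 14.7 CPM. Fosl2 was 121, 124 and 112 CPM alone, 140, 147 and 136 CPM with WT, and 145, 145.5 and 90.1 CPM with sgPrrx1. The WT libraries of Fosl2 lay above those alone, with a log2 fold change of 0.25, and sgPrrx1 replicate 3 lay below all of them. Fosl1, Junb, Ier2 and Ier3 were highest, and Fosb, Fosl2 and Egr1 lowest, in sgPrrx1 replicate 3 among the 9 LLC1 libraries.

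**Figure D2:**
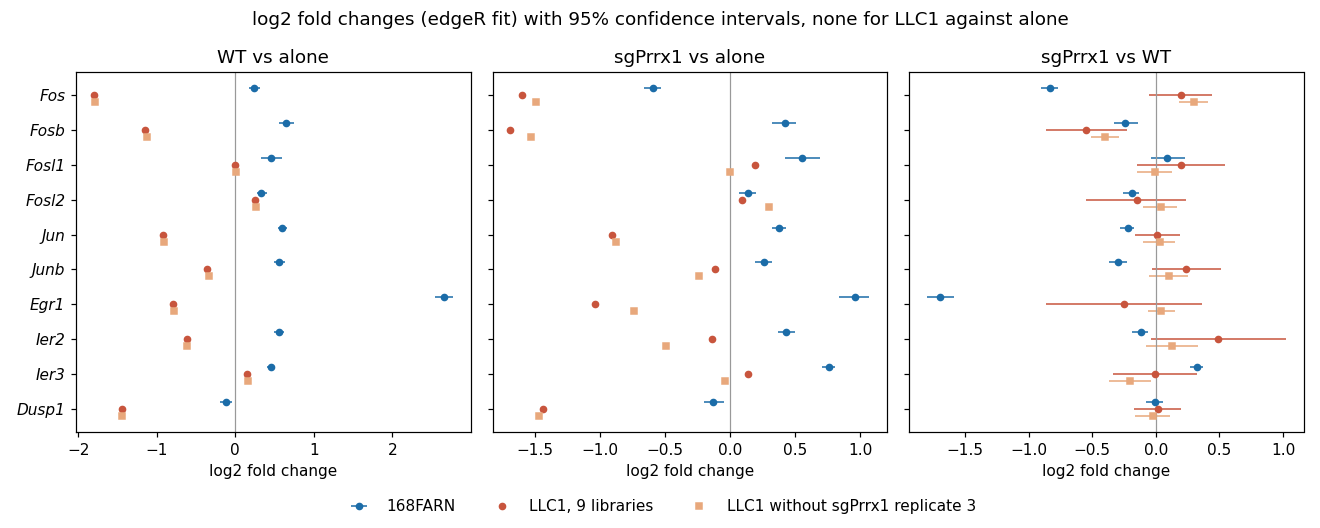
log2 fold change (x axis) of each immediate early gene in the 3 comparisons, with 95% confidence intervals except for LLC1 against alone, the values that chose the set, for 168FARN (blue), LLC1 (red) and LLC1 without sgPrrx1 replicate 3 (orange squares). In WT against alone, Egr1 is at 2.66 in 168FARN and -0.79 in LLC1, and Fos at 0.24 and -1.80. In sgPrrx1 against WT the LLC1 intervals are narrower without the library that stood apart.

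Markers of other cells also moved with coculture in LLC1. With WT against alone, 3 of 8 fibroblast markers tested were past the threshold as higher and 2 as lower, against 4.25% and 4.58% of all genes. Without sgPrrx1 replicate 3 these were 4 and 3 of 9, against 22.0% and 22.2% of all genes. Col1a1 was at 0.375 CPM alone, 8.6 with WT and 0.681 with sgPrrx1, Col1a2 at 0.0296, 8.68 and 0.264 CPM, and Dcn at 2.85, 30.1 and 21.4 CPM. The sum of all 12 went the other way, from 1700 to 1770 CPM alone to 1250 to 1270 with WT and 1580 to 1640 with sgPrrx1, because most of it was Col3a1 (1580 CPM alone and 1080 with WT). Pdgfrb was at 5.59 CPM alone, 2.38 with WT and 3.01 with sgPrrx1, Lum at 2.88, 1.74 and 2.45 CPM, and Pdgfra at 78.3, 69.3 and 68.8 CPM. Thy1, Fap, Postn and Col6a3 were below 1 CPM in all groups. The leukocyte markers summed to 16.3 to 17.8 CPM alone, 36.8 to 38.6 with WT and 36.7 to 65.5 with sgPrrx1, nearly all of it Cd68, with Adgre1 and Cd3e at 0 in all groups. The endothelial markers summed to 0.025 to 0.103 CPM alone, 5.57 to 6.67 with WT and 0.103 to 0.352 with sgPrrx1, with Kdr at 0.0123, 6.04 and 0.115 CPM and Emcn at 0 throughout. The part of other cells' RNA in the LLC1 values was not tested.

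The comparison of sgPrrx1 with WT coculture in LLC1 did not set either group against the libraries alone. The libraries alone still entered its fit through the filter, the scaling and the shared spread. The libraries of both its groups also enter the values that chose the set. With all 9 libraries, edgeR called 0 of the 10 members at an adjusted p below 0.05, and 1 (Fosb) had an unadjusted p below 0.05. DESeq2 called 1 member, Fosb, and limma voom with sample weights called 4 (Fos, Fosb, Junb and Ier3). The background in the edgeR fit was 0.0544% of genes past the threshold, 0% higher and 0.0544% lower. The shares of all genes called by DESeq2 and voom are not at hand, so their counts of members have no background here. Fosb differed by -0.55 (95% confidence interval -0.86 to -0.23, edgeR adjusted p = 0.237) and Fos by 0.20 (-0.05 to 0.44, adjusted p = 0.498). The intervals were -0.17 to 0.20 for Dusp1, -0.16 to 0.19 for Jun and -0.86 to 0.36 for Egr1.

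Without sgPrrx1 replicate 3, Fosb fell by 0.40 ± 0.0467 with sgPrrx1 against WT (1.32-fold, edgeR adjusted p = 0.00794) and Fos rose by 0.30 ± 0.0508 (1.23-fold, adjusted p = 0.0275). Those were 2 of 10 members, where 5.69% of genes passed, 2.94% higher and 2.75% lower. Ier3 differed by -0.20 (-0.37 to -0.04, adjusted p = 0.105). The remaining 7 members had differences from -0.02 to 0.13.

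The difference between the lines in the effect of Prrx1 deletion was tested in a joint fit of 14369 genes, in which 19.3% passed, 11.0% higher and 8.25% lower in LLC1 relative to 168FARN. Fos differed by 1.02 ± 0.121 on the log2 scale (edgeR adjusted p = 4.24e-05), with sgPrrx1 against WT at -0.83 in 168FARN and 0.20 in LLC1. Egr1 differed by 1.44 ± 0.300 (adjusted p = 0.0034) and Junb by 0.52 ± 0.109 (adjusted p = 0.00384). Jun differed by 0.22 ± 0.0729 (adjusted p = 0.0488), and its call was lost in 19 of 24 alternative fits. The other 6 members did not pass, among them Ier2 at 0.59 and Ier3 at -0.35. With the replicate number as a block, Ier2 and Ier3 passed (edgeR adjusted p = 0.0451 and 0.025) and Jun did not (0.0638). Without LLC1 sgPrrx1 replicate 3, 7 members passed, with Fosl2 at 0.20, Fosb at -0.19 and Ier3 at -0.55 added. The 19.3% of all genes belongs to the fit of all libraries, and the shares in these alternative fits are not at hand. The lines were cultured with different fibroblasts, so this is a difference between the 2 coculture systems. Whether the coculture effect itself differed between the lines was not tested, because the genes were chosen on it.

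The make-up of the Fos family was compared on CPM per kb, using merged exon lengths of the GENCODE M1 annotation (2.352 kb for Fos, 3.751 for Fosb, 1.707 for Fosl1 and 5.855 for Fosl2). Fosl1 was the most abundant family transcript per kb in every group. In 168FARN its share of the summed family level was 56.1% ± 0.375 alone, 57.7% ± 2.23 with WT and 66.4% ± 0.827 with sgPrrx1 (SD, n = 3). The share of Fos there was 19.8% ± 0.295, 17.6% ± 1.30 and 10.6% ± 0.149. In LLC1 the share of Fos was 29.1% ± 0.842 alone, 11.8% ± 0.692 with WT and 12.9% ± 2.83 with sgPrrx1. The share of Fosl1 in LLC1 was 45.9% ± 0.971, 64.7% ± 1.59 and 69.2% ± 8.28. The sgPrrx1 means rested on replicate 3, where Fosl1 held 78.7% and Fos 9.66%. In the other sgPrrx1 libraries Fosl1 held 64.3% and 64.5%, about the level with WT, and Fos 14.7% and 14.4%. Among all 10 members, Ier3 had the highest level per kb in every group of both lines, from 253 to 711 CPM per kb, and Egr1 in 168FARN alone had the lowest, 3.51.

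**Figure D3:**
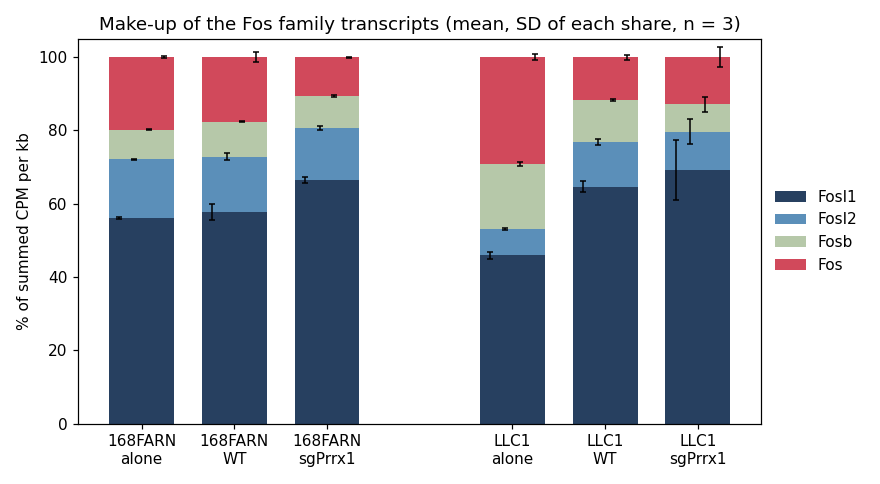
Share of each Fos family gene in the summed CPM per kb of the family (y axis, percent) by line and group, stacked from Fosl1 at the base to Fos at the top, as means of 3 libraries with the SD of each share as a bar at the top of its segment. The Fos segment is 29.1% in LLC1 alone against 11.8% with WT, and 19.8% in 168FARN alone against 10.6% with sgPrrx1.

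The tables of the lines were scaled separately, so the order of levels across lines is approximate. On that footing Fos was highest in LLC1 alone (192 ± 2.58 CPM), then in 168FARN with WT (98.4 ± 1.32), 168FARN alone (83.2 ± 2.67) and LLC1 with sgPrrx1 (63.1 ± 8.46), and last in 168FARN with sgPrrx1 (55.2 ± 0.743) and LLC1 with WT (55.1 ± 1.85). The last 3 overlapped. Across the 18 libraries, centred within each line, genes whose log2 CPM was most like that of Fos included Plcb3 (Pearson r = 0.967), Cbx7 (0.965), Fbxo10 (0.962) and Fads1 (0.961), of 10181 genes compared. Plcb3, a phospholipase, was 178 ± 1.31, 120 ± 2.77 and 130 ± 6.37 CPM in LLC1 alone, with WT and with sgPrrx1, and 168 ± 2, 196 ± 5.29 and 149 ± 4.09 CPM in 168FARN. Cbx7 is a Polycomb protein, Fbxo10 a ubiquitin ligase subunit and Fads1 a fatty acid desaturase. Among the members Dusp1 was most like Fos (r = 0.908, rank 52), followed by Jun (0.815, rank 266). Over all 9 libraries of 168FARN these were 0.291 and 0.137, and over all 9 of LLC1 0.982 and 0.990. These correlations are descriptions over libraries that share groups and depth.

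The wider pathway was followed through 5 lists of 135 genes outside the set. In 168FARN with WT fibroblasts 89 of 131 tested genes rose and 15 fell, 79.4% in all against the 64.1% background. The share past the threshold was 92% of AP-1 target genes, 90% of ERK feedback genes and MAPK phosphatases and 80.5% of other immediate early genes. It was 68.8% of MAP kinases, SRF and TCF factors and 61.5% of other AP-1 family bZIP genes, both near the background. The median log2 fold change was 0.93 for the 25 AP-1 target genes, 0.43 for 20 ERK feedback genes and MAPK phosphatases, 0.32 for 41 other immediate early genes, 0.29 for 13 other AP-1 family bZIP genes and 0.18 for 32 MAP kinases, SRF and TCF factors.

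Most AP-1 target genes changed in 168FARN. Of 25, 20 rose with WT and 3 fell. The collagenase Mmp13 went from 12.3 ± 0.511 to 109 ± 1.28 CPM (log2 3.15 ± 0.0417, edgeR adjusted p = 1.03e-12). The gelatinase Mmp9 fell from 327 ± 3.69 to 140 ± 1.26 CPM, and osteopontin (Spp1) from 3720 ± 155 to 2960 ± 104 CPM. The stromelysin Mmp3 fell from 114 ± 7.32 CPM with WT to 28.5 ± 0.679 CPM with sgPrrx1, and the cytokine Il11 rose from 24.6 ± 1.43 to 40.5 ± 1.82 CPM. In all, 7 AP-1 target genes rose and 13 fell between WT and sgPrrx1, where 26.9% of all genes were higher and 33.1% lower. The fibroblast marker sums given above differed between these groups too, and the part of fibroblast RNA in the AP-1 target values was not tested.

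Of the 41 other immediate early genes in 168FARN, 28 rose and 5 fell with WT, and 8 rose and 25 fell between WT and sgPrrx1, where 26.9% of all genes were higher and 33.1% lower. Egr3 rose from 1.64 ± 0.204 to 4.39 ± 0.681 CPM with WT, while Arc fell from 20.8 ± 0.408 to 15.3 ± 0.290 CPM. Ctgf, a matricellular gene, had 0 counts in all 3 libraries alone and 246 to 384 counts with WT, at least 83.0-fold higher against a floor of 3 counts per library, and 10 to 18 counts with sgPrrx1. Gadd45a, a growth arrest gene, fell from 84.6 ± 2.47 CPM with WT to 40.4 ± 1.81 CPM with sgPrrx1, and Rhob rose from 182 ± 5.27 to 268 ± 5.53 CPM. The fibroblast marker sums differed between these groups as well. The part of fibroblast RNA in Ctgf and in the other values of the pathway lists in 168FARN was not tested.

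Feedback genes of ERK signalling rose in both 168FARN cocultures, 17 of 20 in each, with 1 lower with WT (Spry4) and 0 lower with sgPrrx1, where 33.4% and 25.7% of all genes rose. Dusp5, a nuclear ERK phosphatase, was 11.8 ± 0.536 CPM alone, 36.5 ± 3.01 with WT and 37.1 ± 1.55 with sgPrrx1. Of the 32 MAP kinases, SRF and TCF factors, 18 rose and 4 fell with WT, where 33.4% of all genes rose and 30.7% fell. Only the share past the threshold in either direction, 68.8%, was near that of all genes (64.1%). Map2k6, a p38 kinase activator, went from 2.61 ± 0.184 to 7.45 ± 0.941 CPM, and the SRF coactivator Mkl1 from 57.9 ± 1.44 to 91.2 ± 2.52 CPM. The other AP-1 family bZIP genes had 6 higher and 2 lower of 13, led by Maff (27.5 ± 1.21 to 41.4 ± 1.22 CPM).

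In LLC1 with WT fibroblasts, 8 pathway genes of 129 were past the threshold as higher and 20 as lower, 21.7% in all against 8.83% of 12873 genes (4.25% higher and 4.58% lower). Without sgPrrx1 replicate 3 these were 25 and 51, 58.9% against 44.2% of all genes (22.0% higher and 22.2% lower). With sgPrrx1 against alone 5 were higher and 20 lower, 19.4% against 4.32% of all genes (2.01% higher and 2.31% lower), and 22 and 45 without that library, 51.9% against 26.7% (12.5% and 14.2%). With any other single library left out, 12 to 25 pathway genes were past the threshold with WT and 6 to 13 with sgPrrx1. The shares of all genes in those fits are not at hand. These counts are a description, since the set was chosen on the same contrasts. With WT, all 14 of the 40 other immediate early genes past the threshold were lower (28 lower and 2 higher without sgPrrx1 replicate 3), and the list's median log2 fold change was -0.43 against -0.02 over all genes. Klf2, a zinc finger factor, was 86.9 ± 2.34 CPM alone and 28.3 ± 2.71 CPM with WT, and Egr2 13.9 ± 0.537 and 5.94 ± 0.461 CPM. Atf3, a stress-induced partner of Jun, was 82.1 ± 5.31 and 41.0 ± 0.857 CPM. Spry1, an inhibitor of receptor tyrosine kinase signalling, was 12.2 ± 0.818 and 3.86 ± 0.706 CPM. The AP-1 targets past the threshold were mostly higher, 8 against 1 lower (14 against 4 without that library), and the list's median was 0.24. Plau (urokinase) was 82.1 ± 2.02 CPM alone and 133 ± 2.95 CPM with WT, and Mmp13 25.9 ± 0.803 and 10.2 ± 0.642 CPM.

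Between sgPrrx1 and WT in LLC1, edgeR called 0 of 129 pathway genes with all 9 libraries, 23 of them having an unadjusted p below 0.05. DESeq2 called 5 and limma voom 59, counts for which the share of all genes in the same fits is not at hand. Without sgPrrx1 replicate 3, 3 rose and 8 fell, 8.53% of them against 5.69% of all genes. Zfp36, an RNA-binding protein that destabilises cytokine transcripts, rose from 50.6 ± 1.82 to 65.4 ± 1.38 CPM (edgeR adjusted p = 0.0123), Mmp3 rose from 80.0 ± 2.50 to 106 ± 2.03 CPM (adjusted p = 0.0184), and Atf3 fell from 41.0 ± 0.857 to 33 ± 0.410 CPM (adjusted p = 0.0411).

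**Figure D4:**
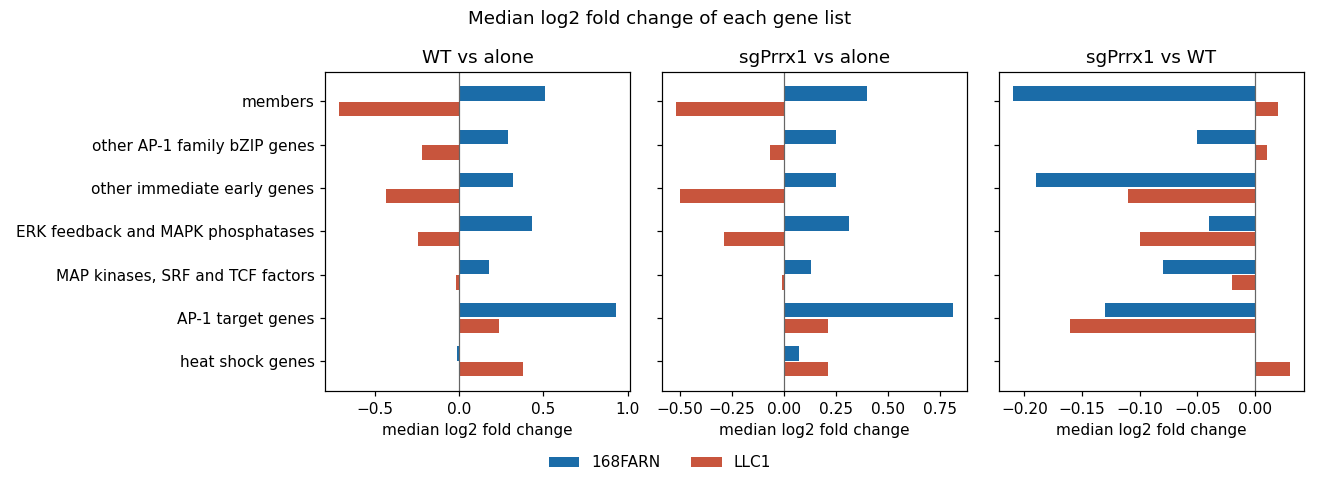
Median log2 fold change (x axis) of the genes tested in each list, in the 3 comparisons, for 168FARN (blue) and LLC1 (red). With WT fibroblasts the median of the 10 immediate early genes is 0.51 in 168FARN and -0.71 in LLC1, and that of the AP-1 target genes 0.93 and 0.24.

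Heat shock genes are given beside these values because dissociation can raise both groups. In LLC1, Hspa1b was 24.3 ± 0.364 CPM alone and 12 ± 0.812 CPM with WT, and Hspa1a 7.37 ± 0.673 and 4.05 ± 0.266 CPM. Over the whole list of 12 genes the median log2 fold change in LLC1 with WT was 0.38. There 1 gene was past the threshold as higher and 2 as lower, against 4.25% and 4.58% of all genes. Without sgPrrx1 replicate 3 these were 6 and 2, against 22.0% and 22.2% of all genes. The summed level was 10100 to 10400 CPM alone and 11700 to 12500 CPM with WT. In 168FARN with WT, 4 heat shock genes rose and 4 fell of 11, with a median of -0.01, where 33.4% of all genes rose and 30.7% fell. The part of dissociation in the members' levels was not tested.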

How the data were processed

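RNA-seq was from 18 libraries in 2 tables, 1 per cancer line. Per the submitters' notes and methods, the authors trimmed reads with Trimmomatic, aligned them to mm10 with STAR and counted them per gene with HTSeq. The deposited values are whole-number counts per gene. The strand setting of the counting is not given in the sources used here, and the kit does not mark strand. Batch correction with ComBat-seq is named in the methods, but whether it touched these tables is not stated.

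The count tests were run with edgeR 4.0.16 under R 4.3.3 (filterByExpr, TMM scaling, quasi-likelihood test, all 9 libraries of a line in 1 fit, Benjamini-Hochberg adjustment over all genes tested, threshold 0.05). 13540 genes were tested in 168FARN and 12873 in LLC1. The interaction was tested in a joint fit of 18 libraries. Fold changes are given as log2 ± SE, and CPM as mean ± SD (n = 3). Code was tested on simulated data. The members and gene lists were chosen with earlier results of these data known. Beyond the members, genes were named as the top 2 higher and 2 lower per list and comparison that passed the threshold with mean counts of at least 100 and no overlap between groups, of which some are given here, plus genes from the 5 most like Fos (log2 CPM with prior count 2). Some named items are not reported here. Alternatives were DESeq2 1.42.0, RLE scaling, other filters, limma 3.58.1 voom with sample weights, a fit of only the 2 groups compared, a replicate block and each library left out. Library totals without scaling factors were added after seeing the data. The reference genome in hand is of another build, so only its exon lengths were used. Coordinates are from RefSeq GRCm38.p6. Symbols matched RefSeq for 99.4% of genes.

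Same-numbered libraries did not deviate together in 168FARN (9 pairs, r from -0.0734 to 0.0627) and only in part in LLC1 (r from -0.0414 to 0.419, 6 of 9 over 0.1), so the numbers were not taken as pairs. Between LLC1 alone and sgPrrx1 all 3 pairs were over 0.1 (0.131, 0.249 and 0.419), a comparison in which the members have no test.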

Additional observations from a re-analysis of the deposited data

Results flagged for a closer look

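The effect of Prrx1 deletion in the fibroblasts (sgPrrx1 against WT coculture) differed between the LLC1 and 168FARN systems by the interaction test of the joint edgeR fit for 4 of the 10 immediate early genes, where 19.3% of all genes passed, and each difference is LLC1 minus 168FARN on the log2 scale. Fos differed by 1.02 (adjusted p = 4.24e-05, 0.94 to 1.11 over 24 alternative fits). Egr1 differed by 1.44 (adjusted p = 0.0034, 1.24 to 1.72 over the alternatives). Junb differed by 0.52 (adjusted p = 0.00384, 0.38 to 0.59). Jun differed by 0.22 (adjusted p = 0.0488, 0.20 to 0.25), with adjusted p from 0.000121 to 0.108 over the alternatives, and its call was lost in 19 of 24 of them, the replicate block included (adjusted p = 0.0638). The WT and sgPrrx1 libraries of LLC1 enter both this test and the values on which the set was chosen. No sample was tested for lying apart in its group by value, since all groups held 3 libraries.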

How the results depend on the processing

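In 168FARN, 508 of 510 log2 fold changes of single members kept their side of the threshold over the alternatives, and 2 (Fosl1, sgPrrx1 against WT) newly passed it. In LLC1, sgPrrx1 against WT, 163 of 170 kept it and 7 newly passed. The members' values in LLC1 against alone have no test, so the planned counts of calls there are not given, and 335 of 340 moved by less than 1 SD between replicates. None of the called values changed sign. In LLC1, 28 pathway genes with WT against alone became 96 with limma voom and 71 with only the 2 groups compared in the fit. With sgPrrx1 against alone, 25 became 85 with voom, 42 with DESeq2 and 4 with the fit of the 2 groups. For sgPrrx1 against WT, 0 members and 0 pathway genes became 4 and 59 with voom, and 1 and 5 with DESeq2. Leaving out single LLC1 libraries gave 12 to 76 pathway genes (WT against alone), 6 to 67 (sgPrrx1 against alone), and 0 to 2 members and 0 to 11 pathway genes (sgPrrx1 against WT). The highest values came from leaving out sgPrrx1 replicate 3, and with that library kept the highest were 25, 13, 0 and 0. Leaving out any alone or WT library gave 12 to 15 pathway genes for WT against alone. For sgPrrx1 against alone, any alone library left out gave 6 or 7, any WT library 11 to 13, and sgPrrx1 replicate 1 or 2 gave 13. Interaction calls ran from 3 to 7 members over the libraries left out, 7 without LLC1 sgPrrx1 replicate 3. Library totals without scaling factors, added after seeing the data, kept these counts within 1.5 times. The cause of these shifts was not tested. For the alternative fits the share of all genes past the threshold is not at hand, except within LLC1 without sgPrrx1 replicate 3.

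With the replicate block, 10, 10 and 8 members were called in the 3 comparisons of 168FARN, with 103, 95 and 93 pathway genes. Shares of all genes past the threshold are not at hand for the blocked fits. In LLC1 the block gave 26, 18 and 0 pathway genes, 0 members for sgPrrx1 against WT, and 5 members in the interaction, where Jun lost its call (adjusted p = 0.0638) and Ier2 and Ier3 gained one (0.0451 and 0.025). The best match of a library in another group shared its number in 7 of 18 cases in 168FARN and 11 of 18 in LLC1.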
